A study of Mus musculus with 9 samples.

Results

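The collagen genes are the rows of the count table whose symbol is Col, a number, the letter a and a number, the symbols of collagen chains in the mouse. There were 42 such rows among 23453 gene symbols. They were grouped as 11 fibrillar chains, 8 basement membrane chains and 23 others, and all 42 matched 1 gene each in GENCODE vM21 on GRCm38. The measurements are bulk RNA-seq of mouse cells in 3 states with 3 replicate libraries each, 9 in all. EpiLC, epiblast-like cells, were made from naive embryonic stem cells in 48 h in N2B27 medium with 1% KSR (a serum replacement), FGF2 and Activin A. Cells taken from EpiLC into N2B27 without FGF2 and Activin A for a further 24 h are aEpiLC, a model of the anterior epiblast. Cells taken from EpiLC for 24 h into Activin A and CHIR99021, an agonist of WNT signalling, are pEpiLC, a model of the posterior epiblast. By the study's methods both later media also held 1% KSR. The study calls the cells wild-type. Its methods state plating on fibronectin for EpiLC of another line, with tamoxifen-inducible NANOG, and name no surface for the cells used here. No source used here says whether the replicates were separate cultures, so a p-value measures the spread between these libraries, which may be technical.

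Collagens are secreted proteins of 3 chains wound into a triple helix. Fibrillar collagens form the fibres of connective tissue, cartilage and bone. Collagen IV chains join into the network that underlies every basement membrane, the sheet of matrix on which the epiblast lies and which cells cross when they leave it through the primitive streak. The remaining collagens decorate fibrils, anchor epithelia, form beaded filaments or span the cell membrane. Each chain is hydroxylated and folded in the endoplasmic reticulum with the help of dedicated chaperones, trimmed outside the cell and cross-linked.

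The libraries held between 20560564 and 23417917 counts, and 3 counts, taken as the detection floor, corresponded to 0.13 to 0.143 CPM, counts scaled to library size. CPM values were TMM-normalized over the 9 libraries, and values are given in the order of replicates 1, 2 and 3. pEpiLC replicate 1 stood apart: it differed more than 4-fold from pEpiLC replicates 2 and 3 at 323 and 333 of 15797 genes, against 57 to 76 genes for every other pair of replicates. Fold changes and counts of calls in pEpiLC are therefore also given without it. The summed CPM of 6 markers of the posterior epiblast and primitive streak (T, Mixl1, Eomes, Evx1, Gsc and Nanog) was 2440 in that library against 750 and 747 in pEpiLC replicates 2 and 3, and at most 34.2 in EpiLC and aEpiLC, although Nanog alone was lower there, at 105 CPM against 247 and 255 CPM. The summed CPM of 6 epiblast markers (Pou5f1, Fgf5, Otx2, Dnmt3b, Utf1 and Pou3f1) was 4500 to 4790 in EpiLC, 4120 to 4320 in aEpiLC and 1800 to 3060 in pEpiLC. Dnmt3b made up the largest part of the sum in every library but pEpiLC replicate 1, at 2520 to 2820 CPM in EpiLC and 744 to 1590 CPM in pEpiLC, while Fgf5 was higher in pEpiLC (159 to 178 CPM) than in EpiLC (77.4 to 90.4 CPM), and Pou5f1 was at 1120 to 1140 CPM in EpiLC and 789, 1070 and 1000 CPM in pEpiLC. The summed CPM of 4 neural markers was 100 to 117 in EpiLC, 144 to 165 in aEpiLC and 17.7 to 51.3 in pEpiLC. Most of it came from Sox2 and Sox3, which epiblast also expresses, and Sox2 (55.2 to 65.7 CPM in EpiLC, 98.4 to 105 CPM in aEpiLC) and Pax6 (0.513 to 0.659 and 1.83 to 2.16 CPM) were higher in aEpiLC than in EpiLC, while the libraries of both states overlapped for Sox1 and Sox3. Cells other than epiblast were looked for by their markers, since they could bring collagen RNA. Of 8 markers of extraembryonic endoderm, 6 were in the table. Their sum was 11 to 11.6 CPM in EpiLC, 15.1 to 17.1 CPM in aEpiLC and 66.2, 7.86 and 7.9 CPM in pEpiLC. Most of it in EpiLC and aEpiLC came from Dab2, at 8.15 to 8.88 and 11.9 to 13.7 CPM. In pEpiLC replicate 1 Gata6 was at 46.5 and Gata4 at 12.4 CPM, while Sox7 was at 0 and Dab2 at 5.91 CPM. Of 8 markers of fibroblasts or feeder cells 5 were in the table, and their sum lay between 11.1 and 23.3 CPM in all 9 libraries. Among these, Pdgfrb, which mesoderm also expresses, was at 14.3 CPM in pEpiLC replicate 1 and between 2.01 and 4.41 CPM elsewhere, while Dcn was at 0.238 CPM there and at most 7.25 CPM, in EpiLC replicate 3, and Thy1 at 7.96 CPM there and at most 17.1 CPM, in aEpiLC replicate 3. The sums of 5 endothelial and 6 trophoblast markers were at most 22.5 and 15.9 CPM, the latter in pEpiLC replicate 1, and Cdh5 and Elf5, defining markers of each, had at most 3 counts in every library. Other members of these lists were highest in pEpiLC replicate 1: Kdr was at 4.63 CPM there and at most 0.304 elsewhere, Cdx2 at 6.96 and at most 1.04, Tfap2c at 5.96 and at most 2.11, and Hand1 at 0.954 and at most 0.368. Of the streak markers, all but Nanog also peaked in pEpiLC replicate 1, with T at 1090 and Mixl1 at 644 CPM. Which cells carried these transcripts was not tested, nor was the part of cells other than epiblast in the collagen levels. In bulk RNA, fewer cells of a type and less RNA per cell cannot be told apart.

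Col18a1 held the larger part of the summed collagen CPM in every library but pEpiLC replicate 1, and its share was smaller in the later states. These shares are of CPM, without regard to length. Summed over the 42 genes, collagen CPM was 658, 683 and 693 CPM in EpiLC, 666, 632 and 618 CPM in aEpiLC and 481, 510 and 527 CPM in pEpiLC. No pEpiLC library reached the level of an EpiLC or aEpiLC library. Col18a1 held 83.1% ± 1.08 of this sum in EpiLC (SD, n = 3), 64.5% ± 1.66 in aEpiLC, and 29.9%, 65% and 63.5% in the 3 pEpiLC libraries. Without Col18a1, the other 41 genes together were at 115, 120 and 109 CPM in EpiLC, 249, 216 and 215 CPM in aEpiLC and 337, 179 and 192 CPM in pEpiLC. All 6 later libraries lay above all 3 EpiLC libraries, and pEpiLC replicate 1 was the highest. The 6 collagen IV chains summed to 33.3, 31.9 and 26.9 CPM in EpiLC, 113, 96.9 and 91.1 CPM in aEpiLC and 164, 75.4 and 77.8 CPM in pEpiLC, and the 11 fibrillar chains to 49.2, 50.4 and 50.7 CPM in EpiLC, 78.3, 71.3 and 71.1 CPM in aEpiLC and 114, 64.6 and 69.9 CPM in pEpiLC. The 23 others summed to 32, 37.9 and 30.8 CPM in EpiLC, 56.7, 47.1 and 52.1 CPM in aEpiLC and 58.7, 38.4 and 44.2 CPM in pEpiLC.

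**Figure D1:**
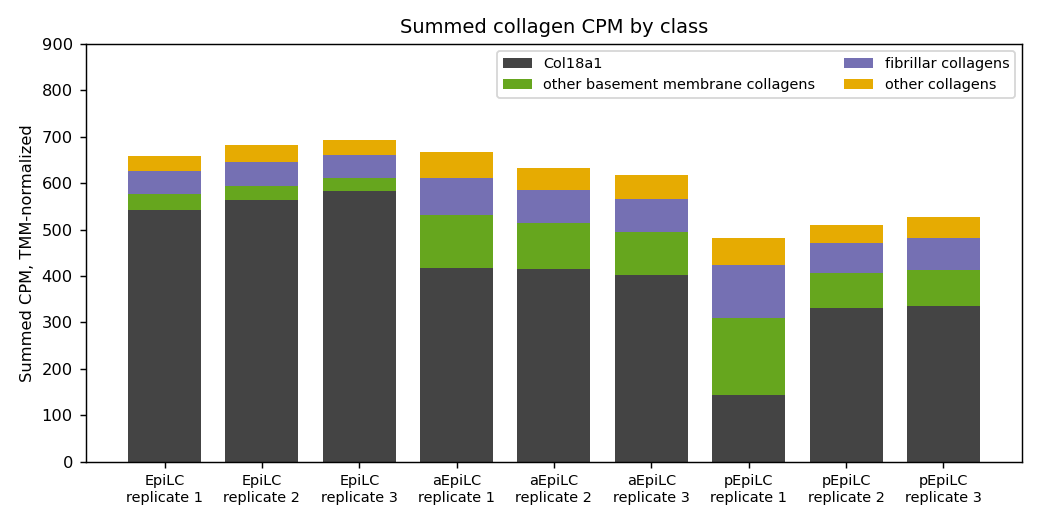
Summed collagen CPM (TMM-normalized) in each of the 9 libraries, stacked by class, with Col18a1 apart from the other 7 basement membrane chains. The bars end at 481 to 693 CPM, and Col18a1 reaches from 543 to 584 CPM in EpiLC but only 144 CPM in pEpiLC replicate 1.

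Levels of single genes were ordered per kilobase of annotated exon. On that scale Col18a1 was at 80.3 ± 2.91 CPM per kb in EpiLC (SD, n = 3), 58.7 ± 1.18 in aEpiLC and 38.5 ± 15.6 in pEpiLC, the highest of the 42 in each state. Col4a1 was second in each, at 3 ± 0.347, 9.18 ± 1.07 and 8.99 ± 4.42 CPM per kb. The gap between the first and the second was wider than the spread in all 3 states. Below them the order changed with the state and with the transcript length used. Next in EpiLC came Col9a2, at 1.79 ± 0.353 CPM per kb, and next in aEpiLC and pEpiLC came Col4a2, at 3.37 ± 0.238 and 4.55 ± 2.42. In EpiLC, Col9a2 and the gene that followed it, Col5a1 (at 1.55 ± 0.0836), did not differ beyond their spread. In pEpiLC neither did Col4a2 and Col5a1 (3.01 ± 0.964). At the lower end, 13 genes averaged less than 1 CPM and were called in no comparison: Col3a1, Col4a3, Col4a4, Col6a3, Col6a6, Col9a1, Col12a1, Col13a1, Col15a1, Col19a1, Col20a1, Col24a1 and Col28a1. Their values ran from 0 to 2.53 CPM. The highest was Col13a1, a transmembrane collagen, in pEpiLC replicate 1, and no other value among them passed 1.57 CPM.

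**Figure D2:**
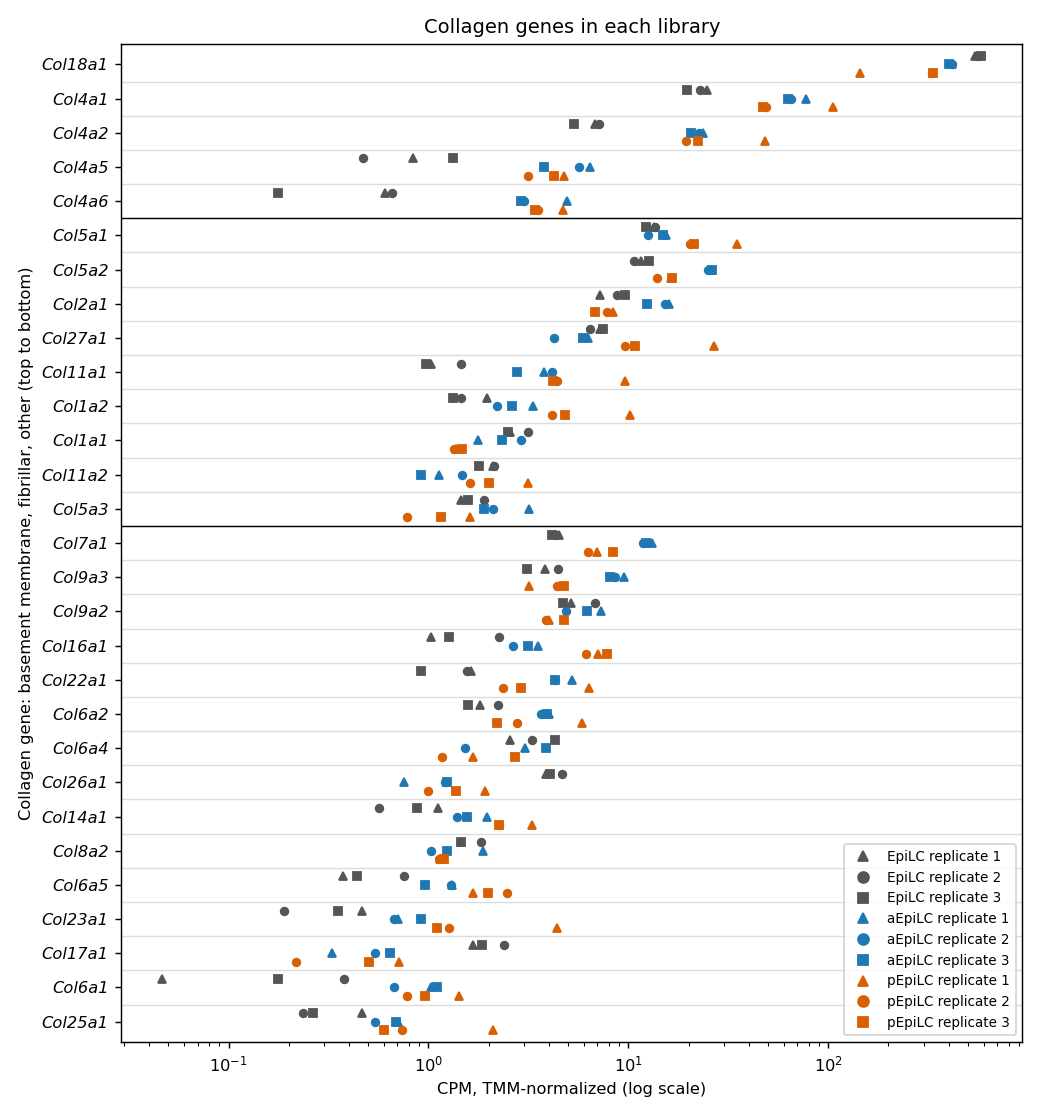
CPM (TMM-normalized, log scale) of the 29 collagen genes that averaged at least 1 CPM or were called in a comparison, 1 point per library, grouped by class. Grey, EpiLC, blue, aEpiLC, and orange, pEpiLC, with triangle, circle and square for replicates 1, 2 and 3. The 4 collagen IV chains shown have all 6 later libraries to the right of EpiLC, and Col18a1 has them to the left.

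Each pair of states was tested in its own 6 libraries with edgeR's quasi-likelihood test and Benjamini-Hochberg adjustment over all genes tested, and every adjusted p below is of that test. A call needed an adjusted p under 0.05 and a log2 fold change of 1 or more in either direction. Of the 42 genes, 31 passed the filter on low counts in all 3 comparisons, Col6a3 and Col12a1 in 1 each, and 9 in none. After the change of medium, more collagen genes rose than fell. From EpiLC to aEpiLC 14 rose and 2 fell of 32 tested, where 7.25% of all 15301 genes tested were higher and 5.24% lower, 12.5% in all. From EpiLC to pEpiLC 14 rose and 3 fell of 31 tested, against 7.71% higher and 8.13% lower of all 15288 genes, 15.8% in all. Without pEpiLC replicate 1 the second comparison called 11 higher and 2 lower of 32, and without EpiLC replicate 3 it called 9 higher. The median log2 fold change of the collagens was 0.86 to aEpiLC and 0.97 to pEpiLC (0.50 without pEpiLC replicate 1), where the medians of all genes were 0.00 and 0.02. The 3 libraries of 1 state all lay on the same side of the 3 of the other at 23 of 32 collagens (71.9%) for aEpiLC and EpiLC, against 56.3% of all genes, and at 22 of 31 (71%) for pEpiLC and EpiLC, against 58.7%. The latter was 23 of 31 (74.2%) without pEpiLC replicate 1, against 69.4% of all genes. Both comparisons share the EpiLC libraries, so their calls are not independent. The share of all genes called in both was not worked out, and the collagens called in both are only listed. Called higher in both were 10 genes, Col4a1, Col4a2, Col4a5, Col4a6, Col6a1, Col6a5, Col11a1, Col16a1, Col22a1 and Col23a1, and called lower in both were Col17a1 and Col26a1. Of these genes, Col22a1 alone was not called in pEpiLC without pEpiLC replicate 1.

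Directly between the later states 3 of 32 collagens tested were called (9.38%), a share near that of all genes. Col16a1 and Col27a1 were higher in pEpiLC and Col9a3 was lower, where 2.55% of all 15198 genes were higher and 4.74% lower, 7.29% in all. The median log2 fold change was -0.05 (-0.36 without pEpiLC replicate 1), against 0.01 for all genes. At 17 of 32 collagens (53.1%) the 3 pEpiLC libraries all lay on the same side of the 3 aEpiLC libraries, against 38.7% of all genes, and without pEpiLC replicate 1 at 21 of 32 (65.6%), against 50.4%. Without pEpiLC replicate 1, Col16a1 stayed higher, Col27a1 and Col9a3 were no longer called, at log2 fold changes of 0.91 (adjusted p = 0.00342) and -0.92 (adjusted p = 0.00137), and Col5a3 was called lower at -1.30 (adjusted p = 0.0206). Both lost calls missed the limit on the fold. Leaving out aEpiLC replicate 1, 2 or 3 left 1 collagen higher each time, and 1, 0 and 2 lower. pEpiLC replicate 1 was the highest of the 3 pEpiLC libraries at 30 of the 42 collagens (71.4%) and the lowest at 4, where it was the highest at 41% and the lowest at 42.4% of the 15728 genes tested in at least 1 comparison.

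**Figure D3:**
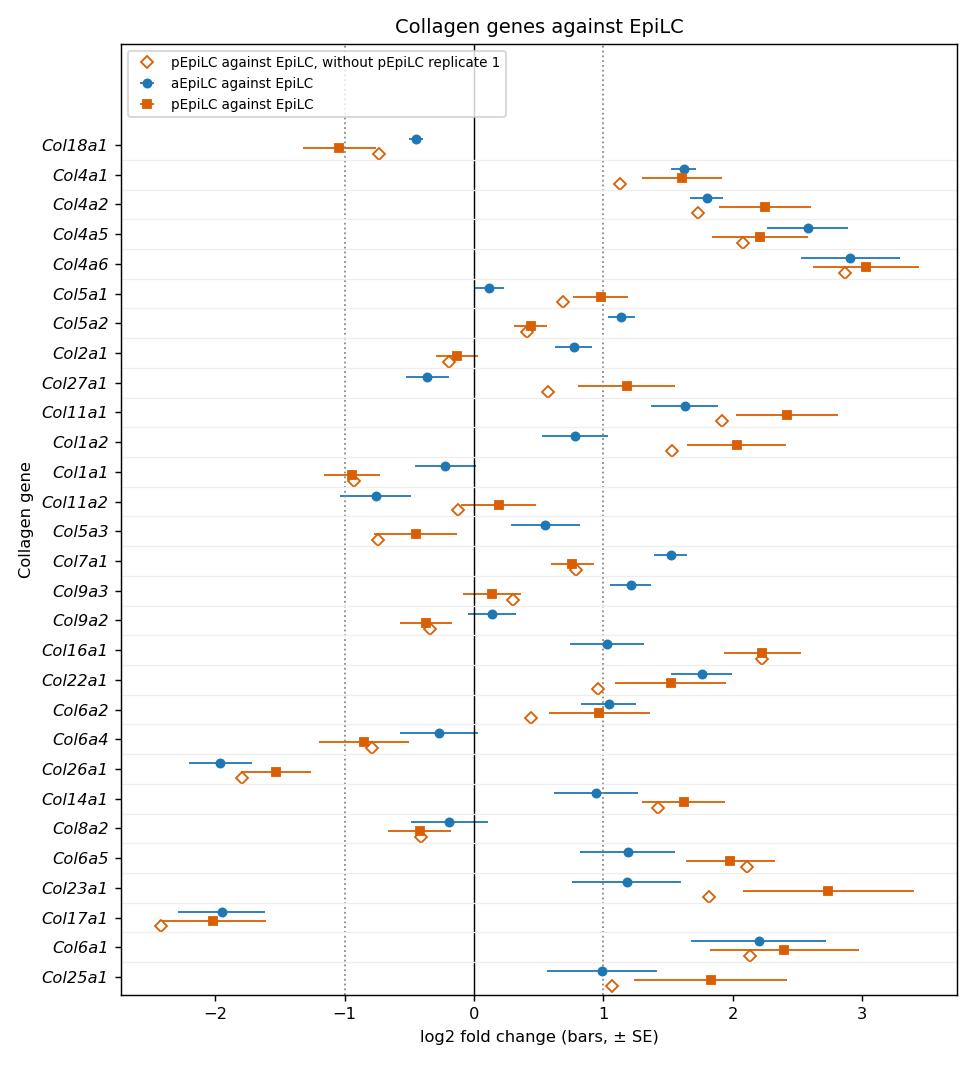
log2 fold change against EpiLC of the 29 collagens shown by library, for aEpiLC (blue circles) and pEpiLC (orange squares) with bars of 1 SE, and for pEpiLC without its replicate 1 (open diamonds). Dotted lines mark the limit of 1 in either direction. Col17a1 and Col26a1 lie left of -1 in both states, and the open diamond of Col18a1 lies at -0.73, inside the limit.

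Among the basement membrane chains, Col18a1 went against collagen IV. Col18a1 (chr10:77052178-77166548) encodes a collagen of basement membranes that carries heparan sulfate chains and from whose end endostatin is cut. It was at 543, 563 and 584 CPM in EpiLC, 418, 416 and 402 CPM in aEpiLC and 144, 332 and 335 CPM in pEpiLC. The 3 states did not overlap: every aEpiLC library lay below every EpiLC library, every pEpiLC library lay below both, and pEpiLC replicate 1 was lowest by far. The log2 fold change was -0.45 ± 0.0551 (SE), adjusted p = 2.21e-05, from EpiLC to aEpiLC, which passed the adjusted p but not the limit on the fold. From EpiLC to pEpiLC it was -1.04 ± 0.281 (SE), adjusted p = 0.02, a fall of 2.05-fold. The call was lost without pEpiLC replicate 1, at -0.73 (adjusted p = 1.74e-08), and without EpiLC replicate 1, 2 or 3, at adjusted p = 0.0571, 0.0635 and 0.0658. Between pEpiLC and aEpiLC the log2 fold change was -0.61 ± 0.279 (SE), adjusted p = 0.184, or -0.30 (adjusted p = 0.00567) without pEpiLC replicate 1. Its relative Col15a1, also of basement membrane zones, never exceeded 1.2 CPM and was not tested.

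The 6 collagen IV genes lie head to head in 3 pairs, Col4a1 with Col4a2 on chromosome 8, Col4a4 with Col4a3 on chromosome 1 and Col4a6 with Col4a5 on chromosome X. Where 2 neighbours do not overlap, the DNA between them lies before both. In GENCODE vM21, Col4a1 (chr8:11198423-11312826, minus strand) and Col4a2 (chr8:11312805-11449287, plus strand) overlap by 22 bases, while 71 bases separate Col4a4 from Col4a3 and 1308 separate Col4a6 (chrX:141165403-141474076, minus strand) from Col4a5 (chrX:141475385-141689234, plus strand). The overlap of the first pair and the DNA before the last pair are shown because these are the 4 collagen IV genes that rose in both later states. They come from the RefSeq promoter table on GRCm38.p6. The overlap lies in annotated exons of both genes, and the other sequences end where an annotated exon begins. Capitals mark matches, on either strand, to a CCAAT box (CCAAT) or a GC box (GGGCGG).
Col4a1/Col4a2 overlap, chr8:11312805-11312826, plus strand: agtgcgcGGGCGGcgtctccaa
Col4a6, chrX:141474077-141474326, minus strand, the 250 bases before the start: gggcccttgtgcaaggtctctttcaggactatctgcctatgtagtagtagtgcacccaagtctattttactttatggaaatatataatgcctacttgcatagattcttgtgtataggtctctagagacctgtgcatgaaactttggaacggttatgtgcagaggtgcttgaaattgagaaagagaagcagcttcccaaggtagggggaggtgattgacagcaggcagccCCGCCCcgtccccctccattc
Col4a5, chrX:141475169-141475384, plus strand, 216 bases that end directly before the GENCODE start and 34 bases before the RefSeq start: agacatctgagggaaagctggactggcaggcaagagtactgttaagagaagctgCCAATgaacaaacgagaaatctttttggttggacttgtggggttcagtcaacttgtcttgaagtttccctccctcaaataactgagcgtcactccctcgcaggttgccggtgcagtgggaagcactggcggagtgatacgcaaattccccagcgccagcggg
Of the 42 collagens, 33 had an entry in that table, with 36 entries in all. Within the 250 bases before the start, the GC box matched in 21 of the 36, against 32.7% of all 32851 promoters (that of Col4a5 is not within the bases printed), and the CCAAT box in 13, against 33.8%. TATAAA, on either strand, was in 4 of the 36, those of Col3a1, Col11a2, Col13a1 and Col17a1, against 12.4% of all promoters. Of these 4, Col17a1 fell in both later states and the other 3 were called in no comparison. Either of CTTTGAA and CTTTGAT, the core letters of binding sites of TCF and LEF, through which WNT signalling acts, was in 5 of the 36, those of Col6a2, Col9a1, Col9a2, Col13a1 and Col15a1, against 7.48% of all. The matches describe letters only, and binding was not measured.

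Col4a1 and Col4a2 encode the chains of the collagen IV network found in nearly all basement membranes. Col4a1 was at 24.7, 22.8 and 19.6 CPM in EpiLC, 77.7, 65 and 62.9 CPM in aEpiLC and 105, 48.8 and 47.2 CPM in pEpiLC. Every later library lay above every EpiLC library, and pEpiLC replicate 1 was the highest. It rose 3.07-fold in aEpiLC (log2 fold change 1.62 ± 0.0995 (SE), adjusted p = 4.92e-08) and 3.05-fold in pEpiLC (1.61 ± 0.309 (SE), adjusted p = 0.00518; 1.13 (adjusted p = 1.45e-07) without pEpiLC replicate 1). Col4a2 was at 6.81, 7.12 and 5.32 CPM in EpiLC, 23.6, 22.6 and 20.6 CPM in aEpiLC and 48.5, 19.5 and 22.3 CPM in pEpiLC. The 6 later libraries again lay above EpiLC, and the pEpiLC library labelled replicate 1 was the highest. Its log2 fold change was 1.80 ± 0.128 (SE), adjusted p = 1.58e-07, in aEpiLC and 2.25 ± 0.355 (SE), adjusted p = 0.00235, in pEpiLC, or 1.73 (adjusted p = 1.21e-07) without pEpiLC replicate 1. Per kilobase, the ratio of Col4a1 to Col4a2 was 3.22, 2.84 and 3.27 in EpiLC, 2.91, 2.55 and 2.72 in aEpiLC and 1.92, 2.22 and 1.88 in pEpiLC. No pEpiLC library reached the ratio of an aEpiLC or EpiLC library. Between pEpiLC and aEpiLC neither gene was called: the log2 fold change was -0.03 ± 0.297 (SE), adjusted p = 0.959, for Col4a1, or -0.51 (adjusted p = 0.00284) without pEpiLC replicate 1, and 0.44 ± 0.321 (SE), adjusted p = 0.402, for Col4a2, or -0.08 (adjusted p = 0.642) without pEpiLC replicate 1.

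Col4a5 and Col4a6 encode chains of a collagen IV network that is restricted to fewer tissues, such as skin and smooth muscle. Col4a5 was at 0.839, 0.471 and 1.32 CPM in EpiLC, 6.43, 5.67 and 3.77 CPM in aEpiLC and 4.77, 3.13 and 4.23 CPM in pEpiLC. Col4a6 was at 0.606, 0.66 and 0.176 CPM in EpiLC, 4.93, 3.01 and 2.9 CPM in aEpiLC and 4.72, 3.52 and 3.4 CPM in pEpiLC. For both, each of the 6 later libraries exceeded each EpiLC library, where the lowest Col4a6 value rested on 4 counts. Col4a6 rose 7.52-fold in aEpiLC (log2 fold change 2.91 ± 0.38 (SE), adjusted p = 3.86e-05) and 8.18-fold in pEpiLC (3.03 ± 0.413 (SE), adjusted p = 0.00132; 2.87 (adjusted p = 1.43e-05) without pEpiLC replicate 1), the largest rises among the collagens tested in each comparison. Col4a5 rose by a log2 fold change of 2.58 ± 0.314 (SE), adjusted p = 2.12e-05, in aEpiLC and of 2.21 ± 0.368 (SE), adjusted p = 0.00292, in pEpiLC, or 2.08 (adjusted p = 0.000118) without pEpiLC replicate 1. In pEpiLC against aEpiLC the log2 fold change was -0.39 ± 0.258 (SE), adjusted p = 0.351, for Col4a5 (-0.52 (adjusted p = 0.165) without pEpiLC replicate 1) and 0.10 ± 0.269 (SE), adjusted p = 0.832, for Col4a6 (-0.05 (adjusted p = 0.907) without pEpiLC replicate 1). Col4a3 and Col4a4, the chains joined with that of Col4a5 in the glomerular basement membrane, did not exceed 0.283 and 0.906 CPM. Of the 5 collagen IV chains tested, 4 rose in each later state, also without pEpiLC replicate 1, where 7.25% of all genes were called higher in aEpiLC and 7.71% in pEpiLC (7.05% without its replicate 1), and Col4a4 was not called (log2 fold change 0.52 ± 0.395 (SE), adjusted p = 0.302, in aEpiLC and 0.47 ± 0.416 (SE), adjusted p = 0.388, in pEpiLC, or 0.13 (adjusted p = 0.851) without pEpiLC replicate 1). The summed levels of the extraembryonic endoderm markers and of collagen IV were both highest in pEpiLC replicate 1. Of the 6 markers Gata4 and Gata6 alone peaked there, and Col4a5 and Col4a6 were highest in aEpiLC replicate 1. In pEpiLC replicates 2 and 3 the collagen IV sum was 75.4 and 77.8 CPM, above the 26.9 to 33.3 CPM of EpiLC. Gata6 and Gata4 were at most 0.435 CPM in these 2 libraries, and Dab2 was at 6.47 and 5.19 CPM. In aEpiLC the collagen IV sum was 91.1 to 113 CPM and the marker sum 15.1 to 17.1 CPM, against 11 to 11.6 CPM in EpiLC. The part of extraembryonic endoderm cells in these levels was not tested.

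**Figure D4:**
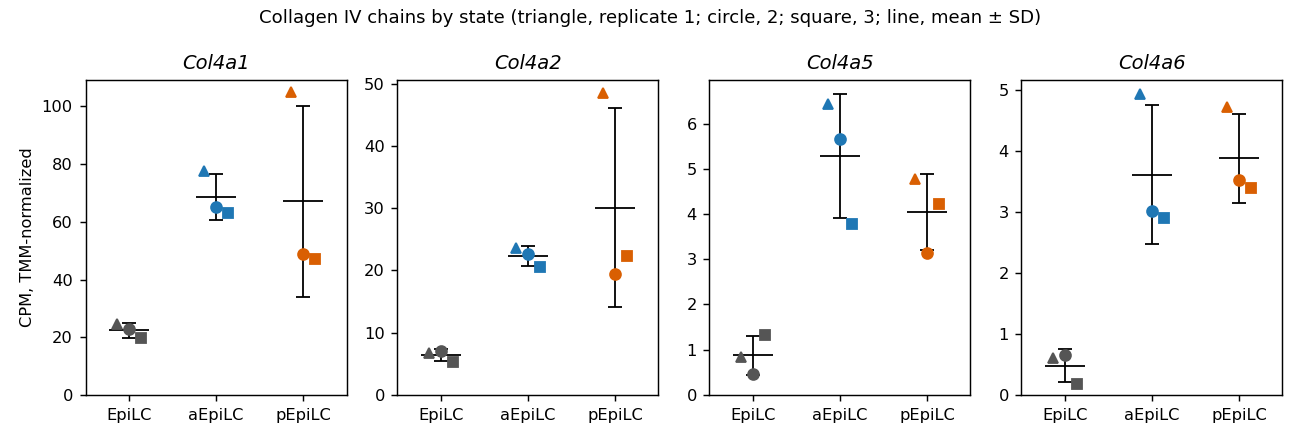
CPM (TMM-normalized) of Col4a1, Col4a2, Col4a5 and Col4a6 in each library, with the mean and SD (n = 3) of each state as a line and bars. Every aEpiLC and pEpiLC point lies above the EpiLC points, and pEpiLC replicate 1 (triangle) lies far above the other pEpiLC points for Col4a1 (105 against 48.8 and 47.2 CPM) and Col4a2 (48.5 against 19.5 and 22.3 CPM).

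Of 10 fibrillar chains tested, 2 rose from EpiLC to aEpiLC (Col5a2 and Col11a1), and 3 rose to pEpiLC (Col1a2, Col11a1 and Col27a1), or 2 without pEpiLC replicate 1. Of all genes, 7.25% and 7.71% were called higher. The median log2 fold change was 0.64 and 0.65, or 0.24 in pEpiLC without its replicate 1. The chains of collagen I, the main collagen of bone, skin and tendon, were low. Col1a1 was at 2.57, 3.16 and 2.5 CPM in EpiLC, 1.78, 2.92 and 2.34 CPM in aEpiLC and 1.38, 1.35 and 1.47 CPM in pEpiLC. Col1a2 was at 1.96, 1.46 and 1.32 CPM in EpiLC, 3.33, 2.2 and 2.62 CPM in aEpiLC and 10.2, 4.17 and 4.83 CPM in pEpiLC. The 3 pEpiLC libraries were the lowest of the 9 for Col1a1 and the highest of the 9 for Col1a2. From EpiLC to pEpiLC, Col1a2 rose 4.1-fold (log2 fold change 2.03 ± 0.382 (SE), adjusted p = 0.00474; 1.53 (adjusted p = 7.78e-05) without pEpiLC replicate 1). Col1a1 had a log2 fold change of -0.94 ± 0.217 (SE), adjusted p = 0.0106, or -0.93 (adjusted p = 0.00815) without pEpiLC replicate 1, and passed the limit on the fold only without EpiLC replicate 3, at -1.01 (adjusted p = 0.0326). The ratio of Col1a1 to Col1a2 per kilobase was 2.48, 4.09 and 3.6 in EpiLC, 1.01, 2.51 and 1.69 in aEpiLC and 0.258, 0.611 and 0.577 in pEpiLC. It was below 1 in each pEpiLC library and above 1 in each other library. With the length of the longest transcript in place of all exons, the mean ratio was 1.61 in EpiLC, 0.829 in aEpiLC and 0.23 in pEpiLC. In aEpiLC the log2 fold changes were -0.22 ± 0.238 (SE), adjusted p = 0.482, for Col1a1 and 0.78 ± 0.256 (SE), adjusted p = 0.0227, for Col1a2. In pEpiLC against aEpiLC, Col1a1 gave -0.75 ± 0.262 (SE), adjusted p = 0.0977 (-0.73 (adjusted p = 0.112) without pEpiLC replicate 1), and Col1a2 1.23 ± 0.366 (SE), adjusted p = 0.0602 (0.73 (adjusted p = 0.0381) without pEpiLC replicate 1), with the latter called without pEpiLC replicate 2, at 1.47 (adjusted p = 0.0423).

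Of the collagen V chains, which start and limit the growth of collagen I fibrils, Col5a2 was called from EpiLC to aEpiLC, and Col5a1 and Col5a3 were called in no comparison. Col5a1 was at 13.5, 13.6 and 12.3 CPM in EpiLC, 15.5, 12.6 and 14.9 CPM in aEpiLC and 35, 20.3 and 21.3 CPM in pEpiLC. Col5a2 was at 11.6, 10.7 and 12.7 CPM in EpiLC, 26, 25 and 26.3 CPM in aEpiLC and 16.3, 13.9 and 16.6 CPM in pEpiLC. Col5a1 was highest in the 3 pEpiLC libraries, while Col5a2 was highest in the 3 aEpiLC libraries. Col5a2 rose 2.21-fold from EpiLC to aEpiLC (log2 fold change 1.14 ± 0.101 (SE), adjusted p = 1.13e-06), and Col5a1 gave 0.12 ± 0.115 (SE), adjusted p = 0.407. From EpiLC to pEpiLC the log2 fold change was 0.98 ± 0.211 (SE), adjusted p = 0.00834, for Col5a1 (0.69 (adjusted p = 7.07e-05) without pEpiLC replicate 1) and 0.44 ± 0.127 (SE), adjusted p = 0.0253, for Col5a2 (0.41 (adjusted p = 0.013) without pEpiLC replicate 1). Col5a1 reached the limit on the fold without pEpiLC replicate 2, pEpiLC replicate 3 or EpiLC replicate 2, at 1.12 (adjusted p = 0.00796), 1.10 (adjusted p = 0.0109) and 1.00 (adjusted p = 0.0348). From aEpiLC to pEpiLC both passed the adjusted p in opposite directions without reaching the fold limit: Col5a1 at 0.84 ± 0.219 (SE), adjusted p = 0.0406 (0.55 (adjusted p = 0.00689) without pEpiLC replicate 1), and Col5a2 at -0.72 ± 0.107 (SE), adjusted p = 0.0053 (-0.75 (adjusted p = 0.000526) without pEpiLC replicate 1). Col5a1 overlaps exons of 2 genes on the other strand, and no source used here gives the strandedness of the libraries. The ratio of Col5a1 to Col5a2 per kilobase was 1.32, 1.44 and 1.09 in EpiLC, 0.672, 0.567 and 0.64 in aEpiLC and 2.42, 1.65 and 1.45 in pEpiLC, without overlap between aEpiLC and either other state. Col5a3, the chain of narrower expression, was at 1.45, 1.89 and 1.58 CPM in EpiLC, 3.19, 2.11 and 1.89 CPM in aEpiLC and 1.62, 0.782 and 1.15 CPM in pEpiLC. Its EpiLC libraries overlapped those of both later states, and its aEpiLC libraries lay above all 3 of pEpiLC. The log2 fold change was 0.55 ± 0.266 (SE), adjusted p = 0.107, in aEpiLC, -0.45 ± 0.321 (SE), adjusted p = 0.291, in pEpiLC (-0.74 (adjusted p = 0.0768) without pEpiLC replicate 1) and -1.02 ± 0.349 (SE), adjusted p = 0.0927, between them (-1.30 (adjusted p = 0.0206) without pEpiLC replicate 1).

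Collagens II and XI together build the fibrils of cartilage, and Col2a1 is also expressed outside it in the early embryo. Col2a1 was at 7.18, 8.81 and 9.58 CPM in EpiLC, 15.9, 15.3 and 12.4 CPM in aEpiLC and 8.35, 7.86 and 6.8 CPM in pEpiLC. The 3 aEpiLC libraries were the highest. It passed the adjusted p but not the fold limit from EpiLC to aEpiLC (log2 fold change 0.77 ± 0.141 (SE), adjusted p = 0.000593) and between pEpiLC and aEpiLC (-0.92 ± 0.151 (SE), adjusted p = 0.00813; -0.98 (adjusted p = 0.000689) without pEpiLC replicate 1), where it was called lower without aEpiLC replicate 3, at -1.02 (adjusted p = 0.0172). Against EpiLC, pEpiLC gave -0.13 ± 0.161 (SE), adjusted p = 0.541 (-0.19 (adjusted p = 0.331) without pEpiLC replicate 1). Col11a1 was at 1.03, 1.46 and 0.967 CPM in EpiLC, 3.8, 4.14 and 2.76 CPM in aEpiLC and 9.63, 4.39 and 4.18 CPM in pEpiLC. All 6 later libraries exceeded EpiLC, with pEpiLC replicate 1 the highest. It rose in both states, by a log2 fold change of 1.63 ± 0.26 (SE), adjusted p = 0.000204, in aEpiLC and 2.42 ± 0.392 (SE), adjusted p = 0.00264, in pEpiLC (1.92 (adjusted p = 1.71e-05) without pEpiLC replicate 1). Its partner Col11a2 was at 2.1, 2.12 and 1.8 CPM in EpiLC, 1.13, 1.48 and 0.92 CPM in aEpiLC and 3.15, 1.61 and 2.02 CPM in pEpiLC. It was lowest in the 3 aEpiLC libraries, and its log2 fold change was -0.76 ± 0.273 (SE), adjusted p = 0.0348, in aEpiLC and 0.19 ± 0.291 (SE), adjusted p = 0.621, in pEpiLC (-0.12 (adjusted p = 0.732) without pEpiLC replicate 1). From aEpiLC to pEpiLC, Col11a1 gave 0.76 ± 0.356 (SE), adjusted p = 0.191 (0.27 (adjusted p = 0.419) without pEpiLC replicate 1) and Col11a2 0.93 ± 0.34 (SE), adjusted p = 0.107 (0.63 (adjusted p = 0.204) without pEpiLC replicate 1).

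Col27a1, a fibrillar collagen of cartilage, was at 7.23, 6.41 and 7.47 CPM in EpiLC, 6.29, 4.23 and 5.93 CPM in aEpiLC and 26.7, 9.65 and 10.8 CPM in pEpiLC. The 3 pEpiLC libraries were above all others, and pEpiLC replicate 1 was far above the rest. It was called higher in pEpiLC than in EpiLC (log2 fold change 1.18 ± 0.377 (SE), adjusted p = 0.0366) and than in aEpiLC (1.52 ± 0.4 (SE), adjusted p = 0.0407). Without pEpiLC replicate 1 the values were 0.57 (adjusted p = 0.00369) and 0.91 (adjusted p = 0.00342), under the limit on the fold. Without EpiLC replicate 1, 2 or 3 the adjusted p against EpiLC was 0.0995, 0.118 and 0.0956, and without aEpiLC replicate 1, 2 or 3 that against aEpiLC was 0.109, 0.15 and 0.121. In aEpiLC against EpiLC it gave -0.36 ± 0.168 (SE), adjusted p = 0.0954. Of the 2 other fibrillar genes, Col24a1 was not called in any comparison and Col3a1, the chain of collagen III, did not exceed 0.563 CPM.

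Among the 23 other collagens, 8 of 16 tested rose and 2 fell from EpiLC to aEpiLC, and 7 of 15 rose and 2 fell from EpiLC to pEpiLC (5 and 2 of 16 without pEpiLC replicate 1). Of all genes, 7.25% were called higher and 5.24% lower in aEpiLC, and 7.71% and 8.13% in pEpiLC (7.05% and 8.33% without its replicate 1). The median log2 fold changes were 1.01 and 0.97, the latter 0.62 without that library. Col16a1, which lies along fibrils and at cell surfaces, was the only collagen called in all 3 comparisons. It was at 1.03, 2.26 and 1.27 CPM in EpiLC, 3.52, 2.65 and 3.13 CPM in aEpiLC and 7.06, 6.17 and 7.86 CPM in pEpiLC. The levels of the 3 states did not overlap, with EpiLC lowest and pEpiLC highest. The log2 fold change was 1.03 ± 0.286 (SE), adjusted p = 0.00961, in aEpiLC, 2.23 ± 0.296 (SE), adjusted p = 0.00118, in pEpiLC (2.23 (adjusted p = 6.16e-06) without pEpiLC replicate 1) and 1.18 ± 0.186 (SE), adjusted p = 0.00675, between pEpiLC and aEpiLC (1.18 (adjusted p = 0.00116) without pEpiLC replicate 1). The rise in aEpiLC fell under the fold limit without aEpiLC replicate 1, EpiLC replicate 1 or EpiLC replicate 3, at 0.94 (adjusted p = 0.0343), 0.81 (adjusted p = 0.044) and 0.91 (adjusted p = 0.041).

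Col7a1 and Col9a3 were highest in aEpiLC. Col7a1, the collagen of the fibrils that anchor epithelia to the tissue below, was at 4.52, 4.34 and 4.13 CPM in EpiLC, 13.2, 11.8 and 12.2 CPM in aEpiLC and 6.96, 6.3 and 8.41 CPM in pEpiLC. The 3 states did not overlap, with pEpiLC between the others. It rose 2.87-fold in aEpiLC (log2 fold change 1.52 ± 0.129 (SE), adjusted p = 8.44e-07), and passed the adjusted p without reaching the fold limit in pEpiLC (0.76 ± 0.166 (SE), adjusted p = 0.00871; 0.79 (adjusted p = 0.00146) without pEpiLC replicate 1) and between pEpiLC and aEpiLC (-0.78 ± 0.149 (SE), adjusted p = 0.0141; -0.75 (adjusted p = 0.00456) without pEpiLC replicate 1). Col9a3, a chain of collagen IX on the surface of cartilage fibrils, was at 3.82, 4.43 and 3.12 CPM in EpiLC, 9.48, 8.59 and 8.09 CPM in aEpiLC and 3.2, 4.39 and 4.78 CPM in pEpiLC. The 3 aEpiLC libraries stood above the other 6, which overlapped. It rose in aEpiLC (log2 fold change 1.21 ± 0.162 (SE), adjusted p = 4.87e-05), gave 0.14 ± 0.224 (SE), adjusted p = 0.627, in pEpiLC (0.30 (adjusted p = 0.215) without pEpiLC replicate 1), and was lower in pEpiLC than in aEpiLC (-1.08 ± 0.188 (SE), adjusted p = 0.0102; -0.92 (adjusted p = 0.00137) without pEpiLC replicate 1). This last call was also lost without aEpiLC replicate 2, at -1.09 (adjusted p = 0.052), and Col9a3 overlaps exons of Tcfl5 on the other strand. Col9a2 was at 5.18, 6.79 and 4.7 CPM in EpiLC, 7.27, 4.9 and 6.21 CPM in aEpiLC and 4.01, 3.87 and 4.78 CPM in pEpiLC. Its aEpiLC and EpiLC libraries overlapped, and it was called in no comparison, at 0.14 ± 0.187 (SE), adjusted p = 0.556, in aEpiLC and -0.37 ± 0.198 (SE), adjusted p = 0.16, in pEpiLC (-0.34 (adjusted p = 0.17) without pEpiLC replicate 1).

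The chains of collagen VI, which forms beaded filaments beside basement membranes, were all low. Col6a1 was at 0.0466, 0.377 and 0.176 CPM in EpiLC, 1.03, 0.675 and 1.1 CPM in aEpiLC and 1.43, 0.782 and 0.965 CPM in pEpiLC. Its EpiLC values rested on 1, 8 and 4 counts, and each later library exceeded them. It rose by a log2 fold change of 2.20 ± 0.524 (SE), adjusted p = 0.00372, in aEpiLC and 2.40 ± 0.573 (SE), adjusted p = 0.0125, in pEpiLC (2.13 (adjusted p = 0.00779) without pEpiLC replicate 1), where the call was lost without EpiLC replicate 3, at 2.31 (adjusted p = 0.0571). Col6a2 was at 1.82, 2.22 and 1.58 CPM in EpiLC, 3.99, 3.64 and 3.91 CPM in aEpiLC and 5.87, 2.78 and 2.21 CPM in pEpiLC. Its aEpiLC libraries lay above EpiLC, while pEpiLC replicate 3 lay just below the highest EpiLC library. It rose in aEpiLC (log2 fold change 1.04 ± 0.209 (SE), adjusted p = 0.00118), but not without EpiLC replicate 3, at 0.93 (adjusted p = 0.00743). In pEpiLC it was not called (0.97 ± 0.387 (SE), adjusted p = 0.076; 0.44 (adjusted p = 0.171) without pEpiLC replicate 1), except without pEpiLC replicate 3, at 1.23 (adjusted p = 0.0358).

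Col6a5 was at 0.373, 0.754 and 0.439 CPM in EpiLC, 1.31, 1.3 and 0.966 CPM in aEpiLC and 1.67, 2.48 and 1.98 CPM in pEpiLC. Each later library exceeded each EpiLC library. It rose in pEpiLC (log2 fold change 1.98 ± 0.345 (SE), adjusted p = 0.00349; 2.11 (adjusted p = 0.000231) without pEpiLC replicate 1) and in aEpiLC (1.19 ± 0.367 (SE), adjusted p = 0.0168), the latter lost without aEpiLC replicate 1, aEpiLC replicate 2, EpiLC replicate 1 or EpiLC replicate 3, at adjusted p = 0.0513, 0.057, 0.074 and 0.0725. Col6a4 was at 2.57, 3.3 and 4.31 CPM in EpiLC, 3.05, 1.53 and 3.86 CPM in aEpiLC and 1.67, 1.17 and 2.71 CPM in pEpiLC. All 3 states overlapped, and it was not called, at -0.27 ± 0.298 (SE), adjusted p = 0.483, in aEpiLC and -0.85 ± 0.349 (SE), adjusted p = 0.0823, in pEpiLC (-0.79 (adjusted p = 0.0516) without pEpiLC replicate 1), although it was called lower in pEpiLC without replicate 3 of pEpiLC, at -1.23 (adjusted p = 0.0279). Col6a3, the large partner of Col6a1 and Col6a2 in collagen VI, did not exceed 0.751 CPM in any library. Between the later states the collagen VI chains were not called, with log2 fold changes of 0.17 for Col6a1, -0.09 for Col6a2, -0.60 for Col6a4 and 0.77 for Col6a5 (-0.09, -0.62, -0.53 and 0.90 without pEpiLC replicate 1).

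Of the collagens that bind along fibrils, Col22a1, found where tissues join, was at 1.63, 1.56 and 0.923 CPM in EpiLC, 5.21, 4.32 and 4.32 CPM in aEpiLC and 6.34, 2.35 and 2.9 CPM in pEpiLC. All 6 later libraries lay above EpiLC. It rose in aEpiLC (log2 fold change 1.76 ± 0.238 (SE), adjusted p = 5.39e-05) and in pEpiLC (1.52 ± 0.431 (SE), adjusted p = 0.0241; 0.96 (adjusted p = 0.0131) without pEpiLC replicate 1), and without EpiLC replicate 1, 2 or 3 the adjusted p of the latter was 0.0582, 0.0669 and 0.0899. Col14a1, a collagen of the same kind, was at 1.12, 0.566 and 0.879 CPM in EpiLC, 1.97, 1.39 and 1.56 CPM in aEpiLC and 3.29, 2.26 and 2.25 CPM in pEpiLC. The states did not overlap, with pEpiLC highest. It rose in pEpiLC (log2 fold change 1.62 ± 0.321 (SE), adjusted p = 0.00588; 1.42 (adjusted p = 0.0021) without pEpiLC replicate 1). In aEpiLC it gave 0.94 ± 0.325 (SE), adjusted p = 0.0299, and was called only without aEpiLC replicate 2 or EpiLC replicate 1, at 1.05 (adjusted p = 0.037) and 1.17 (adjusted p = 0.0253).

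The transmembrane collagens went in both directions. Col17a1, the collagen of hemidesmosomes, was at 1.68, 2.4 and 1.85 CPM in EpiLC, 0.328, 0.54 and 0.644 CPM in aEpiLC and 0.715, 0.217 and 0.505 CPM in pEpiLC. Each later library lay below each EpiLC library. It fell 3.87-fold in aEpiLC (log2 fold change -1.95 ± 0.339 (SE), adjusted p = 0.00039) and 4.05-fold in pEpiLC (-2.02 ± 0.412 (SE), adjusted p = 0.0066; -2.42 (adjusted p = 0.000243) without pEpiLC replicate 1). Col23a1 was at 0.466, 0.189 and 0.352 CPM in EpiLC, 0.704, 0.675 and 0.92 CPM in aEpiLC and 4.39, 1.26 and 1.1 CPM in pEpiLC. The later libraries lay above EpiLC, whose values rested on 10, 4 and 8 counts, and pEpiLC replicate 1 was the highest. The log2 fold change was 1.18 ± 0.424 (SE), adjusted p = 0.0354, in aEpiLC and 2.74 ± 0.662 (SE), adjusted p = 0.013, in pEpiLC (1.82 (adjusted p = 0.00371) without pEpiLC replicate 1). The first call was lost without any of 5 libraries, at adjusted p = 0.061, 0.0605 and 0.118 without aEpiLC replicates 1, 2 and 3, and 0.146 and 0.0897 without EpiLC replicates 2 and 3. It was also lost with DESeq2, with no filter on low counts and with all 9 libraries in 1 fit, and the second call was lost without EpiLC replicate 2 or 3, at adjusted p = 0.057 and 0.0511. Col25a1 was at 0.466, 0.236 and 0.264 CPM in EpiLC, 0.704, 0.54 and 0.69 CPM in aEpiLC and 2.1, 0.739 and 0.597 CPM in pEpiLC. The later libraries lay above EpiLC, and pEpiLC replicate 1 was well above the others. It rose in pEpiLC (log2 fold change 1.83 ± 0.593 (SE), adjusted p = 0.0385), but not without pEpiLC replicate 1, at 1.07 (adjusted p = 0.0939), nor without EpiLC replicate 1, 2 or 3, at adjusted p = 0.0626, 0.125 and 0.123. In aEpiLC it gave 0.99 ± 0.428 (SE), adjusted p = 0.0726.

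Col26a1, a short collagen first described in the reproductive tract, was at 3.87, 4.67 and 4.04 CPM in EpiLC, 0.751, 1.21 and 1.24 CPM in aEpiLC and 1.91, 0.999 and 1.38 CPM in pEpiLC. Each later library lay below each EpiLC library. It fell 3.89-fold in aEpiLC (log2 fold change -1.96 ± 0.244 (SE), adjusted p = 2.57e-05) and 2.89-fold in pEpiLC (-1.53 ± 0.269 (SE), adjusted p = 0.00361; -1.79 (adjusted p = 3.12e-05) without pEpiLC replicate 1). Col8a2, of the hexagonal network under the corneal endothelium, was at 1.45, 1.84 and 1.45 CPM in EpiLC, 1.88, 1.03 and 1.24 CPM in aEpiLC and 1.14, 1.13 and 1.19 CPM in pEpiLC. Its aEpiLC libraries overlapped both other states and its pEpiLC libraries lay below EpiLC. It was called in no comparison, at -0.19 ± 0.298 (SE), adjusted p = 0.634, in aEpiLC and -0.42 ± 0.243 (SE), adjusted p = 0.193, in pEpiLC (-0.41 (adjusted p = 0.282) without pEpiLC replicate 1). Between the later states, the genes in this and the 2 groups before it were not called, with log2 fold changes of -0.26 for Col8a2, 0.66 for Col14a1, -0.08 for Col17a1, -0.26 for Col22a1, 1.54 for Col23a1, 0.82 for Col25a1 and 0.41 for Col26a1. Without pEpiLC replicate 1 these were, in the same order, -0.24, 0.46, -0.48, -0.81, 0.63, 0.06 and 0.15.

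The genes that make, process and bind collagens were described from a list of 50, of which 48 were in the table. From EpiLC to aEpiLC 4 of 40 tested rose (Bmp1, Adamts2, Loxl4 and Itga1) and 2 fell (Adamts14 and Ddr2), with a median log2 fold change of -0.02. From EpiLC to pEpiLC 9 of 40 rose (P3h2, Serpinh1, Fkbp14, Bmp1, Tll1, Adamts2, Adamts3, Loxl4 and Itga1) and 3 fell (Pcolce, Loxl1 and Ddr2), with a median of 0.04. Without pEpiLC replicate 1 P3h2 and Fkbp14 were no longer called, at log2 fold changes of 0.74 and 0.85, nor was P3h2 without EpiLC replicate 1, 2 or 3 (adjusted p = 0.0729, 0.0766 and 0.0846) or Fkbp14 without EpiLC replicate 2 or 3 (adjusted p = 0.092 and 0.0881), and the median was -0.04. Between the later states 3 of 39 were higher in pEpiLC (Tll1, Adamts3 and Itga1) and 3 lower (Pcolce, Loxl1 and Ddr1). Of these, Pcolce and Loxl1 were not called without pEpiLC replicate 1, at -0.97 (adjusted p = 0.00233) and -0.93 (adjusted p = 0.00516), and Loxl1 was not called without aEpiLC replicate 1, 2 or 3 either, at adjusted p = 0.0755, 0.0754 and 0.0613. The calls made up 15% of the list in the first comparison, where 12.5% of all genes were called, 30% in the second, against 15.8%, and 15.4% in the third, against 7.29%. The first share was near that of all genes. Each aEpiLC library left out removed calls between the later states. Without aEpiLC replicate 3 there were 0 higher and 0 lower of 40 tested. Without aEpiLC replicate 2 there were 1 and 0, and without aEpiLC replicate 1 there were 0 and 2. Each of the 6 genes lost its call when 1 library or another was left out. The log2 fold changes of the calls lost without an aEpiLC library lay near those with all libraries. For Tll1 they were 1.72 to 1.84 (1.77 with all libraries), for Adamts3 1.97 and 1.98 (2.07) and for Itga1 1.44 to 1.76 (1.58). For Ddr1 they were -1.67 and -1.65 (-1.69), for Loxl1 -1.18 to -1.05 (-1.12) and for Pcolce -1.02 and -0.98 (-1.05). Those lower in pEpiLC than in EpiLC were 5 without pEpiLC replicate 2. The shares in the 2 comparisons with pEpiLC were 25% and 10.3% without pEpiLC replicate 1, against 15.4% and 7.41% of all genes.

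Within the cell, the collagen chaperone Serpinh1 (HSP47) was at 67.7, 73.6 and 67.5 CPM in EpiLC, 101, 102 and 121 CPM in aEpiLC and 200, 154 and 165 CPM in pEpiLC. The 3 states did not overlap, with EpiLC lowest and pEpiLC highest. It rose 2.53-fold in pEpiLC (log2 fold change 1.34 ± 0.104 (SE), adjusted p = 0.000152; 1.22 (adjusted p = 9.09e-10) without pEpiLC replicate 1), and passed the adjusted p without reaching the fold limit in aEpiLC (0.64 ± 0.0773 (SE), adjusted p = 2.07e-05) and between pEpiLC and aEpiLC (0.68 ± 0.117 (SE), adjusted p = 0.00978; 0.57 (adjusted p = 0.000583) without pEpiLC replicate 1). P4ha1, P4ha2 and P4hb, which encode the enzyme whose hydroxyproline stabilises the triple helix, were not called. P4ha1, a catalytic subunit, was at 16.1, 17.2 and 21.3 CPM in EpiLC, 8.54, 13.2 and 11 CPM in aEpiLC and 15.8, 13.9 and 12.6 CPM in pEpiLC. Both later states lay below EpiLC and overlapped each other, with log2 fold changes of -0.73 ± 0.155 (SE), adjusted p = 0.00165, in aEpiLC and -0.34 ± 0.146 (SE), adjusted p = 0.0912, in pEpiLC (-0.43 (adjusted p = 0.0117) without pEpiLC replicate 1). P4ha2, another catalytic subunit, ran from 7.08 to 11.5 CPM over the 9 libraries, and P4hb, the shared subunit that is also a protein disulfide isomerase, from 414 to 590 CPM. Plod2, a lysyl hydroxylase, ran from 46.8 to 65.7 CPM, and its log2 fold change lay between -0.28 and 0.15 in the 3 comparisons (-0.21 and -0.04 in the 2 that use pEpiLC, without its replicate 1).

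Outside the cell, the proteases that trim fibrillar procollagens changed in different states. Bmp1, which removes the propeptide of the carboxyl end, was at 2.98, 2.17 and 4.09 CPM in EpiLC, 10.9, 8.5 and 9.47 CPM in aEpiLC and 14.6, 7.43 and 8.69 CPM in pEpiLC. All 6 later libraries were above EpiLC. It rose in aEpiLC (log2 fold change 1.64 ± 0.202 (SE), adjusted p = 2.28e-05) and in pEpiLC (1.75 ± 0.326 (SE), adjusted p = 0.00455; 1.41 (adjusted p = 7.51e-05) without pEpiLC replicate 1). Tll1, its close relative, was at 1.35, 1.41 and 1.23 CPM in EpiLC, 1.55, 1.3 and 1.38 CPM in aEpiLC and 7.73, 3.3 and 3.45 CPM in pEpiLC. Only the 3 pEpiLC libraries stood apart, and Tll1 was higher there than in EpiLC (log2 fold change 1.87 ± 0.373 (SE), adjusted p = 0.006; 1.36 (adjusted p = 0.000307) without pEpiLC replicate 1) and than in aEpiLC (1.77 ± 0.374 (SE), adjusted p = 0.0199; 1.26 (adjusted p = 0.00365) without pEpiLC replicate 1), the latter lost without aEpiLC replicate 1, 2 or 3, at adjusted p = 0.0704, 0.0886 and 0.0819. Adamts3, which removes the propeptide of the amino end, was at 1.31, 0.943 and 1.45 CPM in EpiLC, 0.845, 1.21 and 0.828 CPM in aEpiLC and 6.2, 3.39 and 2.57 CPM in pEpiLC. It too was highest in pEpiLC, with a log2 fold change of 1.73 ± 0.374 (SE), adjusted p = 0.00834, against EpiLC (1.29 (adjusted p = 0.00135) without pEpiLC replicate 1) and 2.07 ± 0.386 (SE), adjusted p = 0.013, against aEpiLC (1.63 (adjusted p = 0.00237) without pEpiLC replicate 1). The latter was lost without aEpiLC replicate 1 or 3, at adjusted p = 0.0608 and 0.0645. Pcolce, which enhances BMP1, was at 12.5, 13.9 and 15.7 CPM in EpiLC, 9.01, 10.9 and 11.5 CPM in aEpiLC and 4.48, 4.52 and 6.16 CPM in pEpiLC. The 3 pEpiLC libraries were the lowest, and it fell in pEpiLC against EpiLC (log2 fold change -1.45 ± 0.176 (SE), adjusted p = 0.000834; -1.37 (adjusted p = 6.63e-06) without pEpiLC replicate 1). Its fall against aEpiLC was -1.05 ± 0.184 (SE), adjusted p = 0.0104, and was also lost without aEpiLC replicate 2, aEpiLC replicate 3 or pEpiLC replicate 2, at -1.02 (adjusted p = 0.0568), -0.98 (adjusted p = 0.0538) and -0.97 (adjusted p = 0.0338).

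Of the cross-linking enzymes, Pxdn, the peroxidase that joins collagen IV molecules, was at 104, 111 and 110 CPM in EpiLC, 205, 222 and 182 CPM in aEpiLC and 138, 124 and 114 CPM in pEpiLC. The 3 aEpiLC libraries were the highest, and EpiLC the lowest. The log2 fold change was 0.91 ± 0.0733 (SE), adjusted p = 5.01e-07, in aEpiLC, 0.23 ± 0.0782 (SE), adjusted p = 0.0427, in pEpiLC (0.16 (adjusted p = 0.0349) without pEpiLC replicate 1) and -0.70 ± 0.1 (SE), adjusted p = 0.00468, between pEpiLC and aEpiLC (-0.76 (adjusted p = 8.11e-05) without pEpiLC replicate 1), each under the limit on the fold. Lox, the founding lysyl oxidase, did not exceed 0.869 CPM and was not tested. Loxl4, a lysyl oxidase shown to act on collagen IV, was at 0, 0.0471 and 0.0439 CPM in EpiLC, 0.61, 1.26 and 0.782 CPM in aEpiLC and 8.25, 0.739 and 0.551 CPM in pEpiLC. EpiLC had at most 1 count per library, and against the 3-count floor of each library Loxl4 was at least 6.27-fold higher in aEpiLC and at least 22.6-fold higher in pEpiLC, or at least 4.57-fold without pEpiLC replicate 1. The pEpiLC mean came mostly from replicate 1, and the call there (adjusted p = 0.0141; 0.000566 without pEpiLC replicate 1) was lost without EpiLC replicate 1, 2 or 3, at adjusted p = 0.0564, 0.0548 and 0.0547.

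The collagen receptors split. Itga1, the integrin subunit that binds collagen IV, was at 1.91, 1.27 and 2.2 CPM in EpiLC, 9.71, 7.56 and 6.25 CPM in aEpiLC and 36.2, 18.9 and 15.1 CPM in pEpiLC. The 3 states did not overlap, with pEpiLC highest and its replicate 1 highest of all. It rose 4.35-fold in aEpiLC (log2 fold change 2.12 ± 0.228 (SE), adjusted p = 6.93e-06) and 13.2-fold in pEpiLC (3.72 ± 0.385 (SE), adjusted p = 0.000463; 3.26 (adjusted p = 4.29e-09) without pEpiLC replicate 1), and was higher in pEpiLC than in aEpiLC (1.58 ± 0.337 (SE), adjusted p = 0.0206; 1.12 (adjusted p = 0.000749) without pEpiLC replicate 1). This last call was lost without aEpiLC replicate 1, 2 or 3, at adjusted p = 0.0549, 0.0903 and 0.0892. Ddr1, a receptor tyrosine kinase that collagen activates, was at 93.9, 106 and 101 CPM in EpiLC, 149, 167 and 171 CPM in aEpiLC and 25.5, 62.5 and 62.7 CPM in pEpiLC. The 3 states did not overlap here either, with aEpiLC highest and pEpiLC lowest. It was lower in pEpiLC than in aEpiLC (log2 fold change -1.69 ± 0.301 (SE), adjusted p = 0.0111; -1.37 (adjusted p = 3.11e-07) without pEpiLC replicate 1), a call lost without aEpiLC replicate 2 or 3, at adjusted p = 0.0536 and 0.053. Against EpiLC it gave 0.70 ± 0.0701 (SE), adjusted p = 3.59e-06, in aEpiLC and -0.97 ± 0.297 (SE), adjusted p = 0.0313, in pEpiLC (-0.65 (adjusted p = 1.45e-06) without pEpiLC replicate 1), with the latter called without pEpiLC replicate 2 or 3, at -1.16 (adjusted p = 0.033) and -1.16 (adjusted p = 0.0323). Its relative Ddr2 was at 0.653, 0.848 and 0.879 CPM in EpiLC, 0.0469, 0 and 0.046 CPM in aEpiLC and 0.191, 0.13 and 0.138 CPM in pEpiLC. Each EpiLC library was above the 3-count floor and each aEpiLC library below it, and Ddr2 was at least 5.63-fold lower in aEpiLC (adjusted p = 9.97e-05). In pEpiLC its log2 fold change against EpiLC was -2.32 ± 0.388 (SE), adjusted p = 0.00298 (-2.49 (adjusted p = 0.00241) without pEpiLC replicate 1). The pEpiLC values of Ddr2 rested on 4, 3 and 3 counts, at or just above the floor, so the size of this fall is uncertain. Mmp14, a collagenase of the cell surface, was at 28.4, 25.2 and 27.2 CPM in EpiLC, 30.4, 30 and 30.2 CPM in aEpiLC and 52.6, 36.7 and 33.2 CPM in pEpiLC. It was called in no comparison, and its log2 fold change against EpiLC was 0.17 ± 0.0792 (SE), adjusted p = 0.0999, in aEpiLC and 0.62 ± 0.169 (SE), adjusted p = 0.0204, in pEpiLC (0.40 (adjusted p = 0.00114) without pEpiLC replicate 1).

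**Figure D5:**
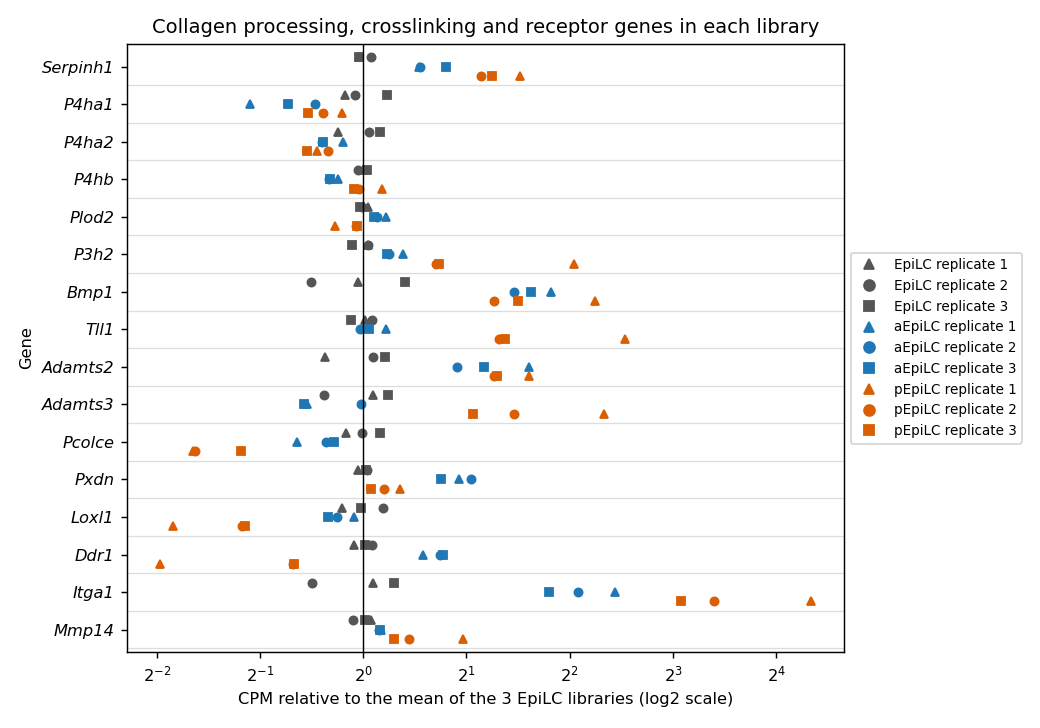
CPM of 16 genes of collagen folding, trimming, cross-linking, binding and degradation in each library, divided by the mean of the 3 EpiLC libraries (log2 scale). The vertical line marks the EpiLC mean, and colours and symbols are as in the plot of collagen levels. Itga1 in pEpiLC lies farthest to the right, and Ddr1 and Loxl1 in pEpiLC replicate 1 are among the points farthest to the left.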

How the data were processed

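Per the labels, 9 libraries of total RNA from mouse cells in 3 states were used, 3 per state. The study's authors mapped paired reads of 150 bp to GRCm38 with STAR 2.7.9a and deposited RSEM 1.3.1 expected counts per gene symbol, without normalization. The gene annotation and strandedness are not given in the sources used here. Expected counts were rounded to whole numbers. In R 4.3.3, edgeR 4.0.16 (TMM, filterByExpr, glmQLFit and glmQLFTest) was run on the 6 libraries of each comparison, with Benjamini-Hochberg adjustment over all genes tested. The limits of a call were an adjusted p of 0.05 and a log2 fold change of 1 in size. The SE is the log2 fold change over the square root of its F value. Levels per kilobase used the union of annotated exons (GENCODE vM21), which can exceed the transcript expressed. Lower bounds divide the mean of the higher state by the highest CPM that 3 counts give in a library of the lower state. Single-sample intervals were not used, and the floor covers counting error only.

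The collagen members, the list of 50 biosynthesis and turnover genes and the markers of 7 cell types were chosen with earlier results of these data known. Every collagen was named, with values in every library where it was called or averaged at least 1 CPM. Biosynthesis genes were described for the 3 largest calls of each comparison, 10 genes always described (Serpinh1, P4ha1, P4ha2, P4hb, Plod2, Lox, Pxdn, Bmp1, Ddr1 and Mmp14), and Pcolce, chosen after its values were seen. In the plot of these genes, P3h2, Adamts2 and Loxl1 were also added after their values were seen. Alternatives were RLE size factors, DESeq2 1.42.0, edgeR's likelihood ratio test, no filter, at least 10 counts in every library, all 9 libraries in 1 fit, the replicate number as a block, each library left out, and no limit on the fold. In data simulated from these libraries, 200 genes were changed by a log2 fold change of 2. The fit called 96% of them for pEpiLC against aEpiLC (14981 genes), 100% for aEpiLC against EpiLC (15047 genes) and 94% for pEpiLC against EpiLC (15014 genes). It also called 7, 0 and 5 unchanged genes. The changed genes were drawn above a minimum mean count, the dispersion was capped and no library was made to stand apart. These shares therefore do not cover collagens of few counts or a library such as pEpiLC replicate 1. Promoter windows came from RefSeq on GRCm38.p6.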

Additional observations from a re-analysis of the deposited data

How the results depend on the processing

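For pEpiLC against aEpiLC, leaving out 1 library moved the collagens called higher (2) to between 1 and 3 and those called lower (1) to between 0 and 2, and the biosynthesis and turnover genes called higher (3) and lower (3) to between 0 and 3 each. The 0 lower collagens, without aEpiLC replicate 2, came from the loss of Col9a3. For aEpiLC against EpiLC the ranges were 10 to 14 collagens higher and 2 lower, and 4 to 5 and 2 biosynthesis genes. For pEpiLC against EpiLC they were 9 (without EpiLC replicate 3) to 17 collagens higher and 2 to 4 lower, and 6 to 9 and 3 to 5 biosynthesis genes. With the likelihood ratio test, pEpiLC against aEpiLC had 4 collagens higher and 2 lower, and with all 9 libraries in 1 fit it had 2 lower. With at least 10 counts in every library, fewer collagens could be tested, and aEpiLC against EpiLC had 1 collagen and 1 biosynthesis gene lower, and pEpiLC against EpiLC had 9 collagens higher. With no limit on the fold, the lower collagens were 4 for pEpiLC against aEpiLC and 4 for aEpiLC against EpiLC. Biosynthesis genes were then 5 higher and 6 lower, 11 and 10, and 16 and 10 for pEpiLC against aEpiLC, aEpiLC against EpiLC and pEpiLC against EpiLC. Per kilobase of the longest transcript, Col18a1 was at 101 CPM in EpiLC and 73.6 CPM in aEpiLC. The cause of these shifts was not tested, other than where fewer genes were tested.

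Some log2 fold changes that were not called changed sign when 1 library was left out, and were not called then either. For pEpiLC against aEpiLC they ran from -0.51 to 0.16 for Col4a1, -0.08 to 0.68 for Col4a2, -0.05 to 0.39 for Col4a6, -0.09 to 0.36 for Col6a1, -0.62 to 0.16 for Col6a2, -0.43 to 0.02 for Col8a2, -0.48 to 0.28 for Col17a1, -0.81 to 0.01 for Col22a1 and -0.25 to 0.28 for Bmp1. Loxl4 was at 1.83 and ran from -0.45, without pEpiLC replicate 1, to 2.33. For aEpiLC against EpiLC, Col6a4 ran from -0.57 to 0.03, and for pEpiLC against EpiLC, Col11a2 from -0.12 to 0.39 and P4hb from -0.04 to 0.1. For pEpiLC against aEpiLC, DESeq2 and 1 fit of all 9 libraries also called Col1a2 (1.24 and 1.23) and P3h2 (1.02 and 1.01), the likelihood ratio test Col1a2 (1.23), Col5a3 (-1.02) and Col23a1 (1.55), and 1 fit of all 9 libraries Col5a3 (-1.02). Fkbp14 was called in aEpiLC without EpiLC replicate 1 (1.06), and Loxl2 in pEpiLC against EpiLC without pEpiLC replicate 2 (-1.40).

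Replicate numbers are shared between states. The correlation of the deviations of same-numbered libraries was 0.17, 0.12 and 0.06 between pEpiLC and aEpiLC. For libraries of different number it was -0.14 to 0.06. Between aEpiLC and EpiLC it was 0.02, -0.06 and -0.06 (-0.02 to 0.08 for different numbers). Between pEpiLC and EpiLC it was 0.03, 0.03 and 0.02 (-0.05 to 0.02). These small values do not settle whether the libraries are paired, and the main fit used no pairing. With the replicate number as a block, pEpiLC against EpiLC had 5 biosynthesis genes lower in place of 3, Ddr1 (-1.07) and Loxl2 (-1.01) being added. Col1a2 was then called higher in pEpiLC than in aEpiLC (1.15), and Col23a1 was no longer called in aEpiLC (adjusted p = 0.0512 in edgeR's test).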
